A study of Mus musculus with 2 samples.

Results

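Histone genes fall into a large replication-dependent class and a small class of variants, and both were measured here in CD4+ T cells with and without Lamtor1. The genes were chosen by name: every probe whose gene name in the scanner files begins with Hist1h, Hist2h, Hist3h or Hist4h was taken as replication-dependent. Every probe whose name begins with H2af, and those for H3f3a and H3f3b, was taken as a variant. This gave 71 probes of 58 gene names among 39429 probes on the array, of which 51 probes of 47 names were replication-dependent and 20 probes of 11 names were variants. The rule itself uses names and no measured value, but it was chosen with earlier results of these data known.

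Histones are the proteins that DNA winds around: H2A, H2B, H3 and H4 form the nucleosome core, and H1 binds the linker DNA between cores. Replication-dependent histone genes lie in clusters, are transcribed mainly while DNA is copied, and give mRNAs that end in a conserved stem-loop in place of a poly(A) tail. Variant genes such as H2afz and H3f3a stand alone, are polyadenylated, are made throughout the cell cycle and replace the core histones at particular chromatin sites. T cells that are driven to divide by their antigen receptor need a large supply of the replication-dependent class.

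The KO group was CD4+ T cells deficient in Lamtor1, a subunit of the Ragulator complex that anchors mTORC1 at the lysosome, and the WT group was CD4+ T cells with Lamtor1, both of the C57BL/6J strain. Naive CD4+CD62L+ cells from spleens of both genotypes were activated through CD3 and CD28 for 5 days, with IL-2 at 50 ng/ml and TGFβ at 1 ng/ml, which was common to both groups. How Lamtor1 was deleted, the age of the animals and how many gave cells are not given in the sources used here, and the extraction text names the naive cells although a culture is described. There was 1 RNA extract per genotype, hybridised on 2 arrays with the dyes exchanged, so the 2 arrays are technical repeats and no test between genotypes could be made.

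Each ratio is therefore the mean log2 ratio of KO over WT on both arrays ± the SD of the 2 arrays, which covers technical spread only. A probe counted as measured when its signal in 1 of the RNAs, or in both, cleared background well on each array, and as lower or higher when it passed 2-fold in the same direction on each array. On the array as a whole, 18565 probes were measured, with a median log2 ratio of -0.03. In these bulk samples, fewer cells of a type and less RNA per cell cannot be told apart.

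The targeted gene Lamtor1, listed under an older name, had signals of 270 and 281 in KO cells against 1054 and 1071 in WT cells, a log2 ratio of -1.95 ± 0.03, and the labels do not say whether its probe lies in the deleted stretch. All 7 listed CD4 T cell markers were measured, and 3 were lower in KO cells, with summed signals of 45541 to 46304 in KO cells against 57399 to 59218 in WT cells. Of 8 measured CD8 T and NK cell markers, 5 were higher, with sums of 4463 to 4567 in KO cells against 1095 to 1130 in WT cells. These 5 were Klrd1, Klrc1, Klrb1c, Tyrobp and Xcl1. Cd8a read 0.67, Prf1 read 0.41 and Cd8b1 read -0.55, and none of them passed 2-fold. Xcl1 alone had signals of 2165 and 2284 in KO cells. Of 8 measured myeloid markers, 4 were higher and 1 was lower, with sums of 13751 to 15282 in KO cells against 7418 to 7609 in WT cells. Itgam, which did not pass 2-fold, made up most of that sum, at 9309 and 8275 in KO cells. Levels of different probes are not comparable, so each sum mainly follows its brightest probes. Among B cell markers, Cd79b alone of 5 was measured, at 191 to 209 in KO cells against 121 to 140 in WT cells, and Cd79a, Ms4a1 and Pax5 were among those not well above background. The only measured erythroid probe, for Hbb-b1, read 80 and 97 in KO cells against 216 and 218 in WT cells. These marker counts stand beside 6.32% lower and 2.33% higher among all measured probes. The part of these cell type markers in the histone results below was not tested.

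Most replication-dependent probes that were measured lay lower in KO cells, and the variant probes, most of which begin later in their transcripts, differed less. Of 40 measured replication-dependent probes, 30 were below 0 on both arrays, 6 were above 0 on both and 4 changed sign, beside 8224 below and 7113 above among the 18565 measured probes of the array. Of these 40 probes, 21 were lower by at least 2-fold on both arrays, which is 52.5% beside 6.32% of all measured probes. Probes that share long runs of letters, described below, were each counted in this share, although they are not separate readings. Of the same 40 probes, 2 were higher, beside 2.33% of all measured probes. The median log2 ratio was -1.19, with -1.25 on the array that had KO in Cy5 and -1.15 on the other, and single probes ran between -2.20 and 1.62. Of the 17 measured variant probes, 2 were lower and none was higher, with a median of -0.24, with -0.15 and -0.42 on the same arrays. The class medians differed by -0.95, replication-dependent minus variant. The classes were not matched for where their probes begin, which is described below. The primer used for labelling is not stated, so it is unknown how fully mRNAs without a poly(A) tail entered the replication-dependent signals.

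**Figure D1:**
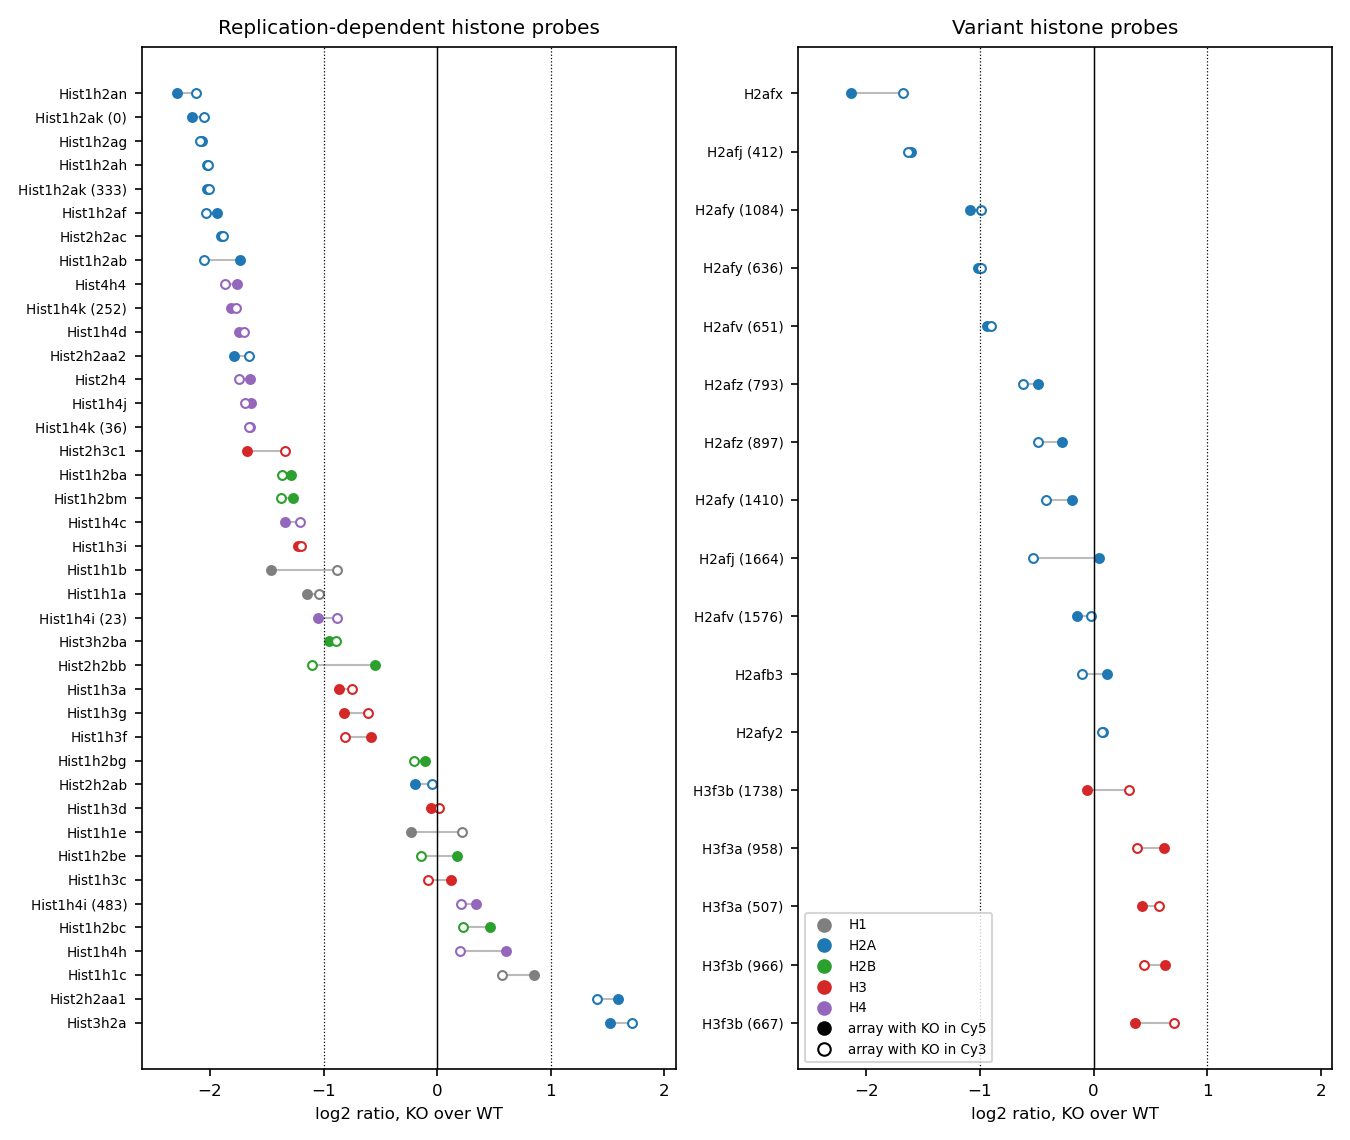
Log2 ratio of KO over WT (x axis) for each of the 57 measured histone probes (rows; a start position in the transcript, in bases, is given where a gene has several probes), with filled points for the array with KO in Cy5, open points for the array with KO in Cy3, and dotted lines at 2-fold. Replication-dependent H2A and H4 probes crowd the low end down to -2.20 for Hist1h2an, Hist3h2a and Hist2h2aa1 stand alone at 1.62 and 1.5, and among the variants H2afx and H2afj reach -1.90 and -1.62 while the H3f3a and H3f3b probes lie between 0.13 and 0.53.

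H2A, which pairs with H2B at the rim of the nucleosome core, held the lowest ratios. Counts by family and by probe position, here and below, stand beside 6.32% lower and 2.33% higher among all measured probes. Of 12 measured replication-dependent H2A probes, 9 were lower and 2 were higher, with a median of -1.94. Hist1h2an, an H2A gene of the large cluster on chromosome 13, had signals of 13749 and 13400 in KO cells against 67242 and 58229 in WT cells. Its WT signals stood well clear of its KO signals, and its log2 ratio of -2.20 ± 0.12 was the lowest of the 57 measured histone probes. Hist1h2ag had signals of 23239 and 18537 in KO cells against 97636 and 78603 in WT cells, a log2 ratio of -2.08 ± 0.01. The probes for Hist1h2ah (-2.02 ± 0.01), Hist1h2af (-1.98 ± 0.07), Hist2h2ac (-1.90 ± 0.01), Hist1h2ab (-1.89 ± 0.22) and Hist2h2aa2 (-1.72 ± 0.09) lay in the same range.

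Most of these H2A probes share long stretches of their letters, so they are not separate readings of separate genes. The Hist1h2ab probe shared no run of at least 20 letters with another histone probe. Probe letters were compared only with those of other probes, not with transcripts of related genes. Whether this probe, or any other histone probe without a shared run, also reads related genes was therefore not tested. The probes for Hist1h2ak, Hist1h2af, Hist1h2an and Hist2h2aa2 all begin 333 bases into their transcripts and end at the stop codon. They are shown because few letters separate them; capitals mark the letters that differ from the Hist1h2ak probe.
Hist1h2ak: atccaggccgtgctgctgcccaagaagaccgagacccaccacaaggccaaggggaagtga
Hist1h2af: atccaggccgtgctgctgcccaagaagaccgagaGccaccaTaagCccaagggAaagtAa
Hist1h2an: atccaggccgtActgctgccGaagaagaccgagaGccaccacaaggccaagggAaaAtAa
Hist2h2aa2: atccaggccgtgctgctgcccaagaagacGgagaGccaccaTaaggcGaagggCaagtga
The probes' listed places in mm9, the build named in the file headers, are chr13:21845304-21845363 on the minus strand for Hist1h2ak, chr13:23626113-23626172 on the plus strand for Hist1h2af, chr13:21878695-21878754 on the minus strand for Hist1h2an, and chr3:96049837-96049896 on the plus strand for Hist2h2aa2. Each lies in the coding part of its gene.

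The Hist1h2af probe matched the Hist1h2ak, Hist1h2an and Hist2h2aa2 probes at 55 of 60 positions each, an identity of 91.7%. Counting a shared run of at least 20 identical letters as a link, 8 probes for 8 H2A gene names formed 1 linked group. All 8 were lower, between -2.20 and -1.62 with a median of -2.0. Their ratios therefore cannot be assigned to single genes. A transcript listed as RP23-480B19.10 shared runs of 25 to 34 letters with the probes for Hist1h2ag, Hist1h2ah and Hist1h2an, and its own probe read -2.10.

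Hist1h2ak was also covered at its other end. Its probe at the start of the coding sequence had signals of 2466 and 2427 in KO cells against 11040 and 10048 in WT cells, a log2 ratio of -2.11 ± 0.08. The probe 333 bases further along had signals of 22482 and 19367 in KO cells against 91369 and 78059 in WT cells, a log2 ratio of -2.02 ± 0.01. The ratios of both probes differed by 0.09. The later probe belongs to the linked H2A group, so its ratio cannot be assigned to Hist1h2ak alone. Whether the earlier probe also reads transcripts of related genes was not tested.

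The 2 replication-dependent probes that were higher were also H2A probes, and both begin late in the transcript. Hist3h2a, an H2A gene of the small cluster on chromosome 11, had signals of 407 and 402 in KO cells against 142 and 122 in WT cells, a log2 ratio of 1.62 ± 0.14 from a probe that starts at base 767. Hist2h2aa1 had signals of 736 and 614 in KO cells against 244 and 231 in WT cells, a log2 ratio of 1.5 ± 0.13 from a probe that starts at base 488. For both genes the KO signals lay above the WT signals with no overlap. With median centring in place of loess, Hist3h2a averaged 1.36 and kept its call, and Hist2h2aa1 averaged 1.12 but no longer passed 2-fold on both arrays.

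The Hist2h2aa1 reading sits beside an opposite one. Its probe is listed at chr3:96049949-96050008 (mm9), 52 bases beyond the coding probe named for Hist2h2aa2. That coding probe had signals of 15639 and 14862 in KO cells against 53891 and 46782 in WT cells, a log2 ratio of -1.72 ± 0.09. The later probe's ratio exceeded the earlier probe's by 3.37 on the array with KO in Cy5 and by 3.06 on the array with KO in Cy3. The Hist2h2ac probe is listed over the same place as the Hist2h2aa2 probe, at chr3:96049834-96049896, and read -1.90 ± 0.01.

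**Figure D2:**
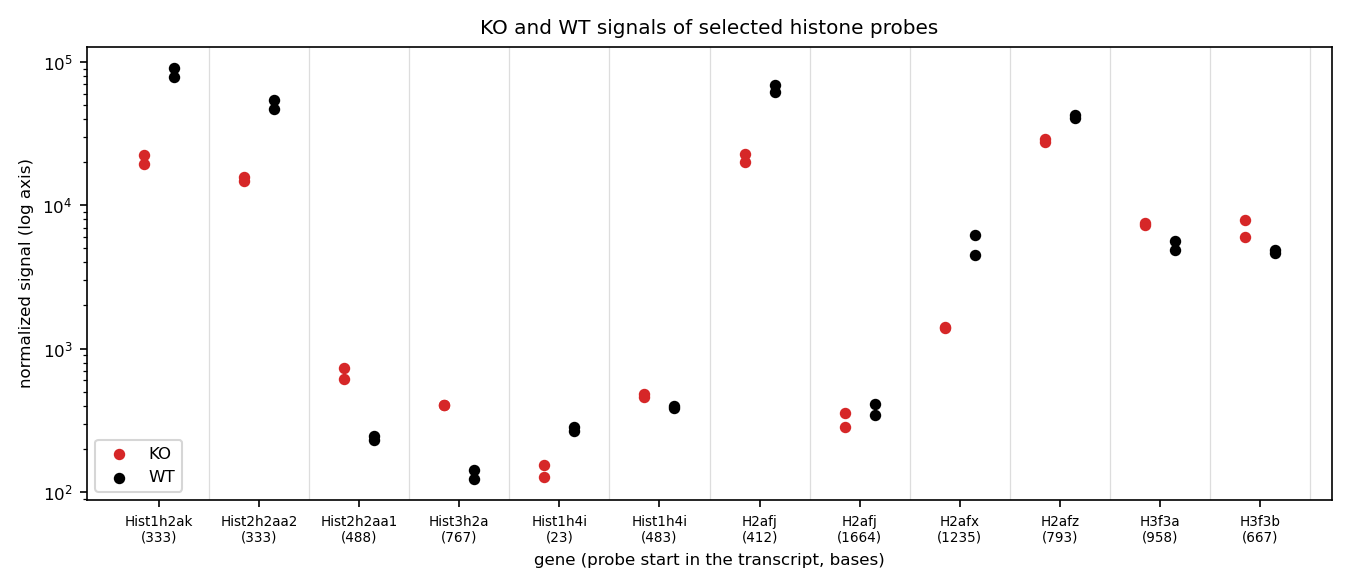
Normalised signals (log y axis) of 12 histone probes, with the 2 arrays as points, KO on the left and WT on the right within each probe; levels of different probes are not comparable. The coding probe for Hist2h2aa2 has KO signals of 14862 and 15639 below WT signals of 46782 and 53891, whereas the probe for Hist2h2aa1, 52 bases further on, has KO signals of 614 and 736 above WT signals of 231 and 244.

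The stem-loop is where replication-dependent histone mRNAs normally end, and 5 probes carried it. It was searched as GGCTCTT, then any letter, T, any letter and AGAGCC, on both strands. On the sense strand it was found in 5 of 39429 probes (0.0127%), all of them replication-dependent histone probes, and on the antisense strand in 0 probes. They are shown in windows of 30 bases because they place each probe on the inside or the outside of the usual mRNA end; capitals mark the stem-loop.
Hist2h2aa1: taaaaaGGCTCTTTTCAGAGCCacccactg
Hist2h2bb: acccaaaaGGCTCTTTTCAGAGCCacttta
Hist1h3a: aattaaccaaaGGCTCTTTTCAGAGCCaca
Hist1h3g: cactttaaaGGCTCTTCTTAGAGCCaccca
Hist1h3i: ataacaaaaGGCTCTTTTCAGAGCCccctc
The windows are bases 1 to 30 of the Hist2h2aa1 probe and bases 31 to 60 of the others. In the Hist2h2aa1 probe the stem-loop starts at base 7 and 38 bases follow it, so that probe lies mostly beyond the usual mRNA end. In the other 4 probes 3 to 6 bases follow the stem-loop, so they end at about that point. Those 4 read -0.83 ± 0.39 for Hist2h2bb, -0.81 ± 0.09 for Hist1h3a, -0.72 ± 0.15 for Hist1h3g and -1.21 ± 0.02 for Hist1h3i. Shared runs of at least 20 letters linked the Hist2h2aa1, Hist2h2bb, Hist1h3a and Hist1h3i probes, and the ratios in that linked group ran between -1.21 and 1.5.

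Across the class, the ratio differed with where the probe lies in the transcript, but histone family differed with it too. Of 35 replication-dependent probes that begin before base 450, 31 were measured, 21 of those were lower and 0 were higher, with a median of -1.51. Of 16 that begin at or beyond base 450, 9 were measured, 0 were lower and 2 were higher, with a median of 0.28. Among the 21 lower probes, 9 were for H2A and 7 for H4. They include probes of the linked H2A group and linked H4 probes described below, which are not separate readings. None of the 9 later measured probes was for H3. The parts of position and family were not separated. The limit was set after the values were seen, in a gap between starts of 441 and 483, and it changes the later set. With a limit of 400 bases the later set held 16 measured probes with a median of -0.43, 2 lower and 2 higher, and with 500 bases it held 7 measured probes with a median of 0.01, 0 lower and 1 higher. Starts count from the first base of the transcript, so the later set can still read coding sequence in longer genes such as those for H1. Of the 17 measured variant probes, 16 begin at or beyond base 450. Their median was -0.16, below the 0.28 of the later replication-dependent probes. The 1 earlier variant probe, for H2afj, read -1.62. The difference between the classes therefore cannot be separated from probe position.

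**Figure D3:**
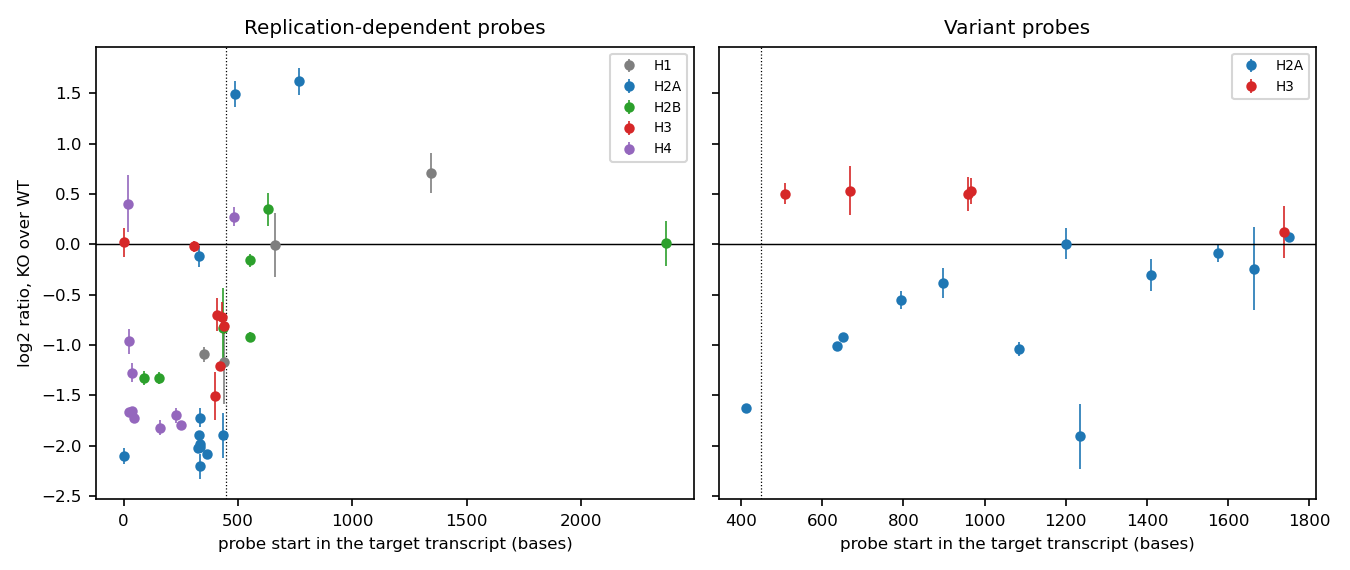
Log2 ratio of KO over WT (y axis, mean of the 2 arrays, bars are the SD of the 2 arrays) against the base at which the probe starts in its transcript (x axis), for measured replication-dependent probes on the left and variant probes on the right; the dotted line is at 450 bases. Replication-dependent probes left of the line have a median of -1.51, and the 9 to its right have a median of 0.28.

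H4, the most conserved core histone, resembled H2A in its readings. Of 10 measured H4 probes, 7 were lower and 0 were higher, with a median of -1.66. The Hist4h4 probe is the only replication-dependent probe listed on chromosome 6, at chr6:136752681-136752740 (mm9). The H2afj coding probe is listed near it, at chr6:136757181-136757240. Hist4h4 had signals of 3075 and 3211 in KO cells against 10452 and 11754 in WT cells, a log2 ratio of -1.82 ± 0.08. Hist1h4k read -1.79 ± 0.03 from the probe at base 252 and -1.66 ± 0.00 from the probe at base 36. Hist1h4d read -1.72 ± 0.03, Hist2h4 read -1.70 ± 0.07, Hist1h4j read -1.67 ± 0.04 and Hist1h4c read -1.27 ± 0.10. Shared runs of at least 20 letters linked the probes for Hist1h4d and Hist1h4j and the Hist1h4k probe at base 36. The probe for LOC674678 shared a run of 20 letters with the other Hist1h4k probe, at base 252, and read -1.95.

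Hist1h4i gave opposite readings within 1 gene. Its probe at base 23 had signals of 128 and 154 in KO cells against 265 and 283 in WT cells, a log2 ratio of -0.96 ± 0.12. Its probe at base 483, chosen after its value was seen, had signals of 486 and 463 in KO cells against 383 and 400 in WT cells, a log2 ratio of 0.28 ± 0.09. The signals did not overlap between genotypes for either probe, neither passed 2-fold on both arrays, and the later ratio exceeded the earlier by 1.24. The later probe shares a run of 21 letters with the probe for Galns, a lysosomal sulfatase gene, which read 0.45. Hist1h4h, named here after its value was seen, read 0.41 ± 0.28 from a probe at base 18 and was the only measured early probe above 0 on both arrays.

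H2B, the partner of H2A, was more mixed. Of 7 measured H2B probes, 2 were lower, 0 were higher, and the median was -0.83. Hist1h2ba, a testis form of H2B in mouse, had signals of 351 and 406 in KO cells against 854 and 1048 in WT cells, a log2 ratio of -1.33 ± 0.06. Hist1h2bm had signals of 383 and 507 in KO cells against 925 and 1312 in WT cells, a log2 ratio of -1.32 ± 0.07. Both probes begin at or before base 155 of their transcripts. Hist3h2ba, at base 551, read -0.92 ± 0.05 and was the lowest of the 9 later probes. Hist2h2bb, at base 433, read -0.83 ± 0.39. The other 3 H2B probes, named after their values were seen, begin at bases 554, 632 and 2374 and read -0.16 for Hist1h2bg, 0.35 for Hist1h2bc and 0.01 for Hist1h2be.

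H3, which carries many of the methylation and acetylation marks read in chromatin studies, had smaller ratios under the main processing. Of 7 measured replication-dependent H3 probes, 2 were lower, 0 were higher, and the median was -0.72. Hist2h3c1 had signals of 472 and 791 in KO cells against 1502 and 2000 in WT cells, a log2 ratio of -1.51 ± 0.23. Hist1h3i had signals of 112 and 141 in KO cells against 263 and 322 in WT cells.

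The dim H3 probes depended on the background step. With an offset of 1 in place of 50, Hist1h3a read -1.53, Hist1h3g read -1.40 and Hist1h3i read -1.71. With the scanner software's own processed signals Hist1h3a read -2.02, Hist1h3g read -2.10 and Hist1h3i read -2.0, against -0.81, -0.72 and -1.21 under the main processing. The Hist2h2aa1 probe read 1.93 with those signals and Hist2h2bb read -0.92, so the opposite signs of the stem-loop probes remained. Hist1h3d, named after its value was seen, had signals of 9321 and 11068 in KO cells against 9685 and 10938 in WT cells, a log2 ratio of -0.02 ± 0.05, and its KO and WT signals overlapped. Hist1h3c, also named afterwards, read 0.02 ± 0.15 from a probe that shares 36 letters in a row with the Hist1h3f probe, likewise named afterwards, which read -0.70 ± 0.16.

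Linker histone H1 was split by probe. Hist1h1a had signals of 127 and 160 in KO cells against 281 and 328 in WT cells, a log2 ratio of -1.09 ± 0.08, and was the only H1 probe of 4 measured that passed 2-fold on both arrays. Hist1h1b had signals of 749 and 1113 in KO cells against 2066 and 2045 in WT cells, a log2 ratio of -1.17 ± 0.41 that missed the rule on the array with KO in Cy3. Hist1h1c, from a probe at base 1346, had signals of 340 and 311 in KO cells against 188 and 209 in WT cells, a log2 ratio of 0.71 ± 0.20. Hist1h1e, named after its value was seen, read -0.01 ± 0.32, with signals that overlapped between genotypes.

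The remaining replication-dependent probes carried little signal. Hist2h2ab, named after its value was seen, read -0.12 and, like Hist1h2bg, was not well above background on either array in KO cells. The bounds computed for them, 1.09-fold lower for Hist2h2ab and 1.11-fold lower for Hist1h2bg, equal the observed ratios. For each of these probes the KO and WT signals overlapped, so no minimum decrease can be given. The 11 probes that were not measured were those for Hist1h1d, Hist1h1t, Hist1h2aa, Hist1h2ac, Hist1h2ae, Hist1h2bb, Hist1h2bp, Hist2h2be, Hist3h2bb, Hist2h3c2 and the earlier Hist2h4 probe. Their signals lay between 60.1 and 116 in both RNAs, with log2 ratios between -0.38 and 0.25.

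Counts by cluster stand beside 6.32% lower and 2.33% higher among all measured probes. By cluster, 16 of 30 measured probes of Hist1, on chromosome 13, were lower and 0 were higher. Of 7 in Hist2, on chromosome 3, 4 were lower and 1 was higher. Of 2 in Hist3, on chromosome 11, 0 were lower and 1 was higher, and the single Hist4 probe was lower. The probes called lower were therefore named for genes of 3 of the 4 clusters. The linked H2A group joins probes named for Hist1 and Hist2, so its readings cannot be assigned to a cluster. In Hist3, Hist3h2ba read -0.92 and did not pass 2-fold.

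Among the variants, H2afx, whose protein is phosphorylated at DNA breaks, was lowest. It had signals of 1424 and 1400 in KO cells against 6240 and 4477 in WT cells, a log2 ratio of -1.90 ± 0.32. H2afx is known as an intermediate case whose mRNA can end at a stem-loop or carry a poly(A) tail, and its probe starts at base 1235. The signals of both genotypes stood apart.

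H2afj was the other variant called lower, and its 2 probes differed. The coding probe at base 412 had signals of 22650 and 20038 in KO cells against 69094 and 62185 in WT cells, a log2 ratio of -1.62 ± 0.02. The probe at base 1664 had signals of 358 and 285 in KO cells against 346 and 412 in WT cells, a log2 ratio of -0.24 ± 0.41, and its KO and WT signals overlapped. The coding probe belongs to the linked H2A group, and its longest run in common with a replication-dependent probe is 38 letters of the Hist2h2aa2 probe; capitals mark that run.
H2afj: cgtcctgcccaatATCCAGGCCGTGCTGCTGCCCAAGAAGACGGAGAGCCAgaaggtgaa
Hist2h2aa2: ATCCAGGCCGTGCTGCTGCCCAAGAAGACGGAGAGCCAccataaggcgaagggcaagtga
The H2afj probe is listed at chr6:136757181-136757240 (mm9, plus strand). It matched the Hist2h2ac probe at 45 of 50 aligned positions (90.0%). Without this probe the variant median was -0.16, with 1 variant probe lower; this setting was chosen after its value was seen.

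H2afy encodes macroH2A, an H2A with a large added domain. Its probe at base 636 had signals of 796 and 740 in KO cells against 1611 and 1471 in WT cells, a log2 ratio of -1.0 ± 0.02. Its probe at base 1084 had signals of 1452 and 1437 in KO cells against 3078 and 2855 in WT cells, a log2 ratio of -1.04 ± 0.07. Both reached -0.99 on the array with KO in Cy3 and so missed the 2-fold rule. The probe at base 1410, whose accession matched no current symbol, read -0.30 ± 0.16.

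H2afz and H2afv encode the 2 forms of H2A.Z, which sits at promoters. H2afz had signals of 28957 and 27563 in KO cells against 40636 and 42326 in WT cells at base 793, a log2 ratio of -0.55 ± 0.09, and read -0.39 ± 0.15 at base 897. H2afv had signals of 6482 and 6350 in KO cells against 12409 and 11888 in WT cells at base 651, a log2 ratio of -0.92 ± 0.02, and read -0.08 ± 0.09 at base 1576. At each of these genes the earlier probe gave the lower ratio. H2afy2, the other macroH2A gene, read 0.08 ± 0.01, and the measured H2afb3 probe, listed on chromosome 17, read 0.01 ± 0.16. The probes for H2afb2, H2afy3 and the H2afb3 probe on the X chromosome were not measured.

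H3f3a and H3f3b encode H3.3, the H3 that is placed outside replication, and their ratios lay above 0. H3f3a had signals of 7502 and 7290 in KO cells against 4876 and 5601 in WT cells at base 958, a log2 ratio of 0.50 ± 0.17, and read 0.50 ± 0.10 at base 507. H3f3b had signals of 6000 and 7912 in KO cells against 4660 and 4855 in WT cells at base 667, a log2 ratio of 0.53 ± 0.24, read 0.53 ± 0.13 at base 966, and read 0.13 ± 0.26 at base 1738. Of these 5 probes 4 were above 0 on both arrays and none passed 2-fold. With median centring in place of loess, which moved the median of all probes to -0.35, the 5 probes lay between -0.12 and 0.12, or 0.23 to 0.47 above that median. Probes for LOC100044525 (0.47) and Gm6128 (0.40) shared runs of 20 and 22 letters with H3f3a.

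The probes were searched for poly(A) signal letters. AATAAA, a common poly(A) signal, stood in 4 of 20 variant probes (20%), in 2 of 51 replication-dependent probes (3.92%) and in 12.6% of all probes, read on the sense strand. ATTAAA stood in 1 of 20 variant probes and 2 of 51 replication-dependent probes, beside 4.56% of all probes. These matches describe the probe letters only.

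Promoters were examined because the replication-dependent coding probes had low ratios together. From RefSeq promoter windows of GRCm38.p6, which span 250 bases before to 50 after a start, 42 promoters matched 41 replication-dependent genes and 7 matched variant genes. CCAAT, read on both strands, stood in 88.1% of the replication-dependent windows, 6 of 7 variant windows and 37.4% of all 32851 windows. TATAAA stood in 59.5% of replication-dependent windows, 1 of 7 variant windows and 13.6% of all. ATTTGCAT, the octamer known from H2B promoters, stood in 31.0% of replication-dependent windows, 1 of 7 variant windows and 1.74% of all, and within the class in 6 of 9 H2B, 7 of 14 H2A and 0 of the H1, H3 and H4 windows. H4 windows held CCAAT in 2 of 7 cases, whereas all 14 H2A windows held it. Windows of neighbouring genes can overlap, as between Hist1h2an and Hist1h2bp below, so the same match may be counted for both genes. The overlap was not tested.

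The Hist1h2an promoter is shown because the probe named for that gene had the lowest ratio, although that probe belongs to the linked H2A group. It is the stretch of 234 bases between Hist1h2an and Hist1h2bp, at chr13:21787249-21787482 on the minus strand (RefSeq, GRCm38.p6), and capitals mark 4 CCAAT matches, 2 of them in antisense, and 1 TATAAA match, none of which overlap.
Hist1h2an promoter: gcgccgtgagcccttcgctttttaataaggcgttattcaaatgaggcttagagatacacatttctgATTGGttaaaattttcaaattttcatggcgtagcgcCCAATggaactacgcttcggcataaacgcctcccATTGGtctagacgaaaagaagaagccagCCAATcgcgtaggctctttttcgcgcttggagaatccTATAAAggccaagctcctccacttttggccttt
The probe for Hist1h2bp, the H2B gene on the other side, was not measured, so the pair could not be compared.

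Genes that make and place histones differed less than the replication-dependent histone probes. The lists were chosen with earlier results of these data known, and their counts stand beside 6.32% lower and 2.33% higher among all measured probes. Of 15 measured genes of histone mRNA processing and decay, 1 was lower and 0 were higher, with a median of -0.40. The lower gene was Zfp473, a zinc finger protein of the histone mRNA 3′ end complex, at 103 and 118 in KO cells against 264 and 301 in WT cells, a log2 ratio of -1.36. Slbp and Casp8ap2 did not pass 2-fold and were named after their values were seen. Slbp, which binds the stem-loop, read -0.32 ± 0.07, with signals of 268 and 317 in KO cells against 348 and 382 in WT cells, and Casp8ap2, a scaffold of histone locus bodies, read -0.62 ± 0.05.

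Of 8 measured genes of histone gene transcription, 2 were lower and 0 were higher, with a median of -0.38. E2f1, a transcription factor of S-phase entry, had signals of 354 and 310 in KO cells against 920 and 919 in WT cells, a log2 ratio of -1.47 ± 0.13. Wee1, a kinase that also acts on H2B late in S phase, read -1.29 ± 0.19. Npat, the coactivator of the histone clusters, was not measured.

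Histone chaperones were listed by task. Of 10 measured genes that carry histones to replicating DNA, 3 were lower and 0 were higher, with a median of -0.49. Chaf1a, the large subunit of the CAF-1 complex, had signals of 400 and 339 in KO cells against 1298 and 1302 in WT cells, a log2 ratio of -1.82 ± 0.17. Asf1b, an H3-H4 chaperone, read -1.53 ± 0.08, and Nasp, which keeps a store of soluble H3 and H4, read -1.04 ± 0.05. Chaf1b, another CAF-1 subunit named after its value was seen, had signals of 3730 and 4112 in KO cells against 2113 and 2082 in WT cells, a log2 ratio of 0.90 ± 0.11, below the 2-fold rule.

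Of 20 measured chaperones of variants and general chaperones, 2 were lower and 0 were higher, with a median of -0.15. These were Hjurp, which places the centromeric H3, at -1.26 ± 0.11, and Anp32e, which removes H2A.Z, at -1.19 ± 0.05. Cenpa, the centromeric H3 itself and no member of the histone set by its name, read -1.91 ± 0.08, with signals of 524 and 503 in KO cells against 1894 and 1964 in WT cells.

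S-phase genes moved with the replication-dependent histones. Of 19 measured genes on that list, 14 were lower and 0 were higher, with a median of -1.21 beside -1.19 for the replication-dependent histone probes and -1.51 for those that start before base 450. Cdt1, which licenses replication origins, read -2.49 ± 0.07, and Rrm2, a subunit of ribonucleotide reductase, read -2.35 ± 0.15. Prim1, a primase subunit, read -1.89 ± 0.20. Their part in the histone ratios was not tested.

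**Figure D4:**
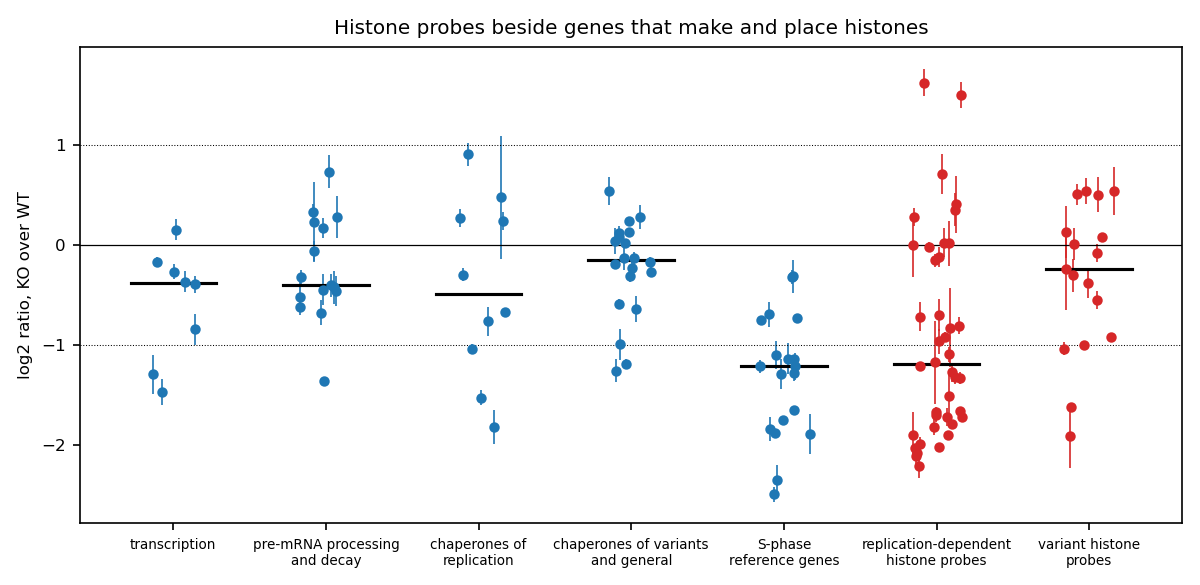
Log2 ratio of KO over WT (y axis, mean of the 2 arrays, bars are the SD of the 2 arrays) for measured genes of 5 lists in blue and for measured histone probes in red; black lines are medians, dotted lines are at 2-fold, and the sideways spread has no meaning. The medians are -1.21 for S-phase genes and -1.19 for replication-dependent histone probes, against -0.24 for variant probes.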

How the data were processed

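Gene expression was measured on 2 two-colour Agilent arrays of 1 KO and 1 WT RNA extract, the second with the dyes exchanged. The deposited scanner files hold intensities per spot from Agilent Feature Extraction, version 10.7.3.1 per the file headers and 10.5.1.1 per the submitters' processing notes. The authors' deposited value table equals the log10 ratios of those files, with a difference of 0. The sources used here do not give the primer used for labelling.

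Mean and background signals were corrected with normexp (offset 50) and loess within arrays in limma 3.58.1 (R 4.3.3), with 1377 control spots at weight 0 in loess. The 206 and 214 other spots that carried outlier marks were left out after that fit. Ratios were turned to KO over WT and averaged, and single-channel signals came from Aquantile scaling. No spot was saturated, and of all spots other than controls 43.7% to 51.7% were well above background in KO and 48.4% to 48.8% in WT. The number of arrays limits the precision.

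The normalisation steps and the 2-fold rule were run on simulated data, with changes split evenly between directions and changed probes scored only where bright. That run does not test ratios of dim probes or an excess of lower probes as on these arrays. The named probes were all variants, the 30 replication-dependent probes of largest absolute ratio, Lamtor1, and up to 4 genes per list that passed 2-fold, each list gene by its brightest measured probe; any other probe or gene named was chosen after its value was seen, and some list genes are not reported here. The members and lists were chosen with earlier results of these data known. Of 71 probes, 66 matched a current symbol by accession in RefSeq. Genes are named as in the files, and probe positions are those of the files. Figures were drawn with matplotlib 3.10.9.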

Additional observations from a re-analysis of the deposited data

How the results depend on the processing

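No paired analysis was possible because the 2 arrays carry the same 2 RNA extracts, so no replicate numbers are shared between groups. For the same reason no replicate could be left out. In each setting run that gives both medians the replication-dependent median stayed below 0 and below the variant median. No setting matched the classes for probe position. The difference of class medians ran between -1.39 and -0.62, against -0.95 as reported. With the software's processed signals, and equally with the authors' deposited ratios, the replication-dependent median was -1.57, the difference -1.39, the medians before and beyond base 450 were -1.72 and 0.47, 1 later probe was lower, and 1946 probes of the array were lower and 1071 higher. With a normexp offset of 1 the median was -1.45, 1 later probe was lower and 735 probes of the array were higher. With median centring the class medians were -1.57 and -0.60, the earlier probes -2.05, 1 replication-dependent probe was higher (Hist3h2a, 1 of the later ones; Hist2h2aa1 lost its call), and 132 probes of the array were higher; the later median turned to -0.051, which is 0.30 above the all-probe median of -0.35. With no filter on dim probes the median was -0.81, the difference -0.64 and the later median 0.0062. Requiring both RNAs well above background gave -1.30. The array with KO in Cy5 alone called 4 variant probes lower. A 1.5-fold rule called 5 variant probes and 1 later probe lower, and 2351 probes of the array lower and 1202 higher. With 1 probe per gene name the variant median was -0.55 and the difference -0.62. The split at 400 bases turned the later median to -0.43 with 2 lower, and the split at 500 gave 0.013 with 1 higher, and 1 higher among the earlier probes. Without the H2afj coding probe 1 variant was lower. The causes of these shifts were not tested. Of 47 named histone probes (17 variant and 30 replication-dependent), 39 kept their sign under all 8 alternatives, and the 8 that changed sign had not passed 2-fold. These alternatives are not 8 separate checks. The deposited ratios repeat the processed signals, and keeping marked spots changed none of these values. A probe that passed 2-fold on each array could not change sign on either array alone. Dim probes such as those for Hist2h2ab and Hist1h2bg give no firm size of difference, and 1 extract per genotype leaves the spread between animals unmeasured.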
